A study of Columba livia and Gallus gallus with 96 samples.

Results

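Hindlimb buds of muff and grouse pigeon embryos were compared at Hamburger-Hamilton stage HH21 (embryonic day 3.5), when the buds are early outgrowths with no feathers or scales. Muff and grouse are the feather-footed phenotypes of the study of domestic pigeon (Columba livia), and scale pigeons are its scale-footed group. The comparison took the 8 libraries labelled pigeon hindlimb HH21 of these 2 phenotypes, 4 muff and 4 grouse, of 96 libraries in the whole series. The 4 scale hindlimb libraries of the same stage are given beside them as levels, and the muff and grouse libraries of the forelimb at HH21 and of the hindlimb at HH25 (day 4.5) and HH29 (day 6) as comparisons of their own. No allele, breed, sex or number of embryos per library was given in the labels, and no treatment. Foot phenotype and the lineage in which it was bred therefore cannot be told apart, and p-values measure the spread between these libraries, which the labels do not tie to separate embryos.

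Forelimb and hindlimb buds look alike at first and differ in a few regulators. TBX5, a T-box transcription factor, starts and patterns the forelimb, while PITX1, a paired-type homeodomain factor, and its target TBX4, another T-box factor, act in the hindlimb. In domestic pigeons feathered feet have been linked to regulatory variants near PITX1 and TBX5, and leg feathers form where scales normally would. Other pathways of the early bud are fibroblast growth factors from the apical ridge, Sonic hedgehog from the posterior margin, BMP and WNT ligands, and retinoic acid, which is made near the body and broken down farther out by the CYP26 enzymes.

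The 8 libraries held 12768296 to 15098759 counts each, with 15859 to 16146 features above 0, and their 10 most abundant features took 5.34% to 6.0%. A feature is a transcript or a set of transcripts that the authors counted together, so a gene can have several. The features called below carry RefSeq identifiers, apart from 2 with CLIV identifiers and no gene name. Levels are given as CPM, which is the count divided by the TMM-scaled library total and put on a common scale, and were compared within a feature only. Limb markers matched the labelled limb: PITX1 was 122 ± 24.2 CPM (SD, n = 4) in muff hindlimb and 1.6 ± 0.56 in muff forelimb, and 160 ± 27.3 and 1.41 ± 0.246 in grouse. TBX4 was 123 ± 20 CPM in muff hindlimb against 0.927 ± 0.163 in muff forelimb.

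Between muff and grouse hindlimb buds, 128 of 12891 tested features were called at an adjusted p below 0.05 (edgeR quasi-likelihood test with a term for replicates 1 and 2 against 3 and 4), which is 0.993% of those tested. Of these, 56 (0.434%) were higher and 72 (0.559%) lower in muff, and 54 changed by at least 1 on the log2 scale. In 105 of the 128 the CPM of the 4 muff and 4 grouse libraries did not overlap, against 6.9% of all tested features. The same libraries chose the 128, so this count is a description only. The median log2 fold change of all tested features was 0.012. Replicates 1 and 2 differed from 3 and 4 far more widely than muff from grouse: that term alone called 3450 features (26.8%). The count depended on the design. With replicate number as a block it was 7, all of them among the 128: ANXA6, TBX5, EFCC1, NFU1, a cystatin, the general transcription factor IIE subunit 1 feature and an uncharacterised locus. With no such term it was 15.

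Single libraries also decided the count. It was 3 without grouse replicate 3 and 4 without muff replicate 4, and lay between 25 and 39 without grouse replicate 2 or 4 or muff replicate 1, 2 or 3, and was 187 without grouse replicate 1. Without grouse replicate 3 the calls were ANXA6, general transcription factor IIE subunit 1 and a histidine--tRNA ligase feature. Without muff replicate 4 they were ANXA6, both GLT1D1 features and an oocyte zinc finger protein XlCOF19 feature. ANXA6 was the 1 feature called in all 8 fits that left out a library, and 23 were called in at least 4 of the 8. All 128 kept their direction in all 8 fits. These fits share most of the libraries that chose the features, so the kept direction is a description only. The highest adjusted p that a called feature reached in them lay between 0.021 and 0.194, which holds for every gene named below.

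**Figure D1:**
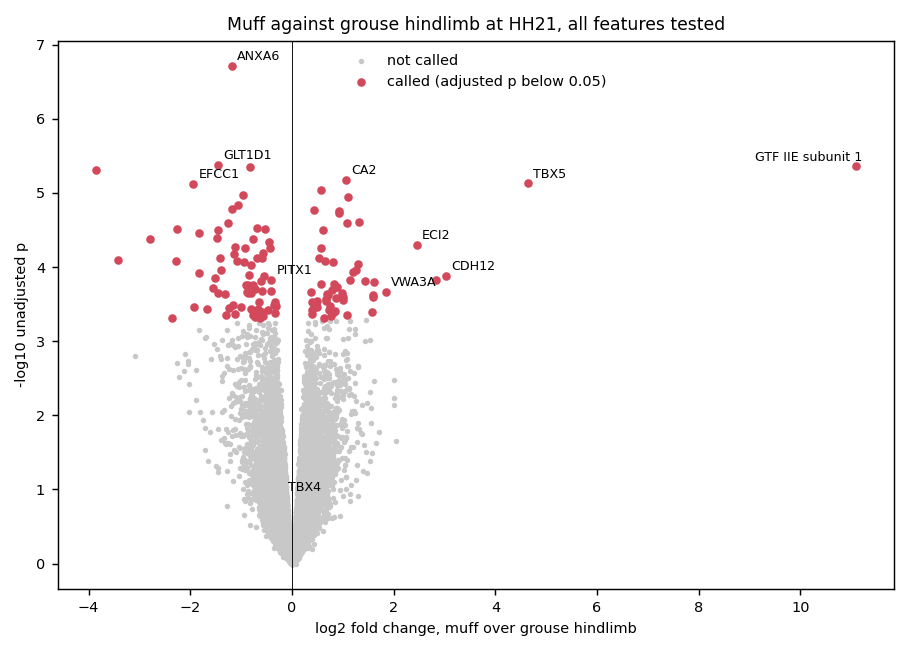
Log2 fold change of muff over grouse hindlimb at HH21 (x axis) against the -log10 unadjusted p of the edgeR quasi-likelihood test (y axis) for 12891 features. The 128 called features are red, with TBX5 at 4.64 and the general transcription factor IIE subunit 1 feature at 11.1 standing to the right of the others.

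TBX5 was the limb regulator with the largest difference. Its main feature, a set of 3 transcripts, read 1.21, 4.03, 2.16 and 2.65 CPM in muff replicates 1 to 4, and 0.0785, 0.135, 0.0757 and 0.0759 CPM in grouse. The scale hindlimb libraries read 0.251, 0.315, 0.0833 and 0.249 CPM. All 4 muff libraries lay above all grouse and scale libraries, and the grouse values rest on 5 counts in all, against 139 in muff. The log2 fold change was 4.64 (SE 0.55, edgeR adjusted p = 0.0121). It was lost without grouse replicate 3 or muff replicate 4, with an adjusted p of up to 0.0721 and a log2 fold change between 4.16 and 4.98 over the 8 fits. With so few counts in grouse, the fold change itself is loosely bounded. In bulk tissue, more cells carrying the transcript and more transcript per cell cannot be told apart.

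The hindlimb level of TBX5 was far below that of the forelimb. TBX5 was 155 ± 13.3 CPM in muff forelimb and 168 ± 31.2 CPM in grouse forelimb, which differ by -0.1 on the log2 scale (SE 0.1, adjusted p = 0.599). The difference between muff and grouse thus differed between limbs by 4.74 on the log2 scale (SE 0.52, adjusted p = 0.00129, edgeR interaction term). TBX5 was the 1 feature called of 13371 in that test of the limb difference (0.00748%), where 393 passed an unadjusted p of 0.05, and DESeq2 also called 1. Later hindlimb buds held more TBX5 in both groups. At HH25 TBX5 was 26.1 ± 2.04 CPM in muff against 1.12 ± 0.611 in grouse (4.52, SE 0.22, adjusted p = 2.83e-05), and at HH29 48.1 ± 16.4 against 3.58 ± 0.578 (3.75, SE 0.26, adjusted p = 0.000236). A second TBX5 feature, a single transcript below the filter on low counts, held 2, 4, 1 and 10 counts in muff replicates 1 to 4 and 2 counts in all in grouse.

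PITX1 was lower in muff than in grouse. It read 142, 138, 104 and 93.9 CPM in muff replicates 1 to 4, 187, 178, 128 and 142 CPM in grouse, and 202, 164, 158 and 149 CPM in scale. Muff and grouse overlapped across replicates, but within replicates 1 and 2, and within 3 and 4, both muff libraries lay below both grouse libraries. PITX1 thus fell by 0.41 on the log2 scale (SE 0.07, edgeR adjusted p = 0.0327). The call was lost in 10 of 17 alternatives, with the replicate block among them, at an adjusted p of up to 0.465, and its log2 value stayed between -0.45 and -0.38. At HH25 the difference was -0.18 (adjusted p = 0.221) and at HH29 -0.02 (adjusted p = 0.907). TBX4, which PITX1 is known to activate, was 148, 113, 119 and 103 CPM in muff and 127, 158, 131 and 130 CPM in grouse, with a log2 fold change of -0.18 (adjusted p = 0.386). ISL1, a LIM homeodomain factor of the early hindlimb field, had 0.32 (adjusted p = 0.511).

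None of the tested neighbours of these genes in the RefSeq gene order was called by edgeR. For TBX5 these were 6 features within 5 places on either side, TBX3 among them, with 1 at an unadjusted p below 0.05 and 1 called by DESeq2. For PITX1 they were 7 features, PCBD2 among them, with 4 at an unadjusted p below 0.05, all higher in muff, and 1 called by DESeq2. Over all tested features 19.1% had such an unadjusted p, 8.92% higher and 10.1% lower in muff, and DESeq2 called 5.27%.

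**Figure D2:**
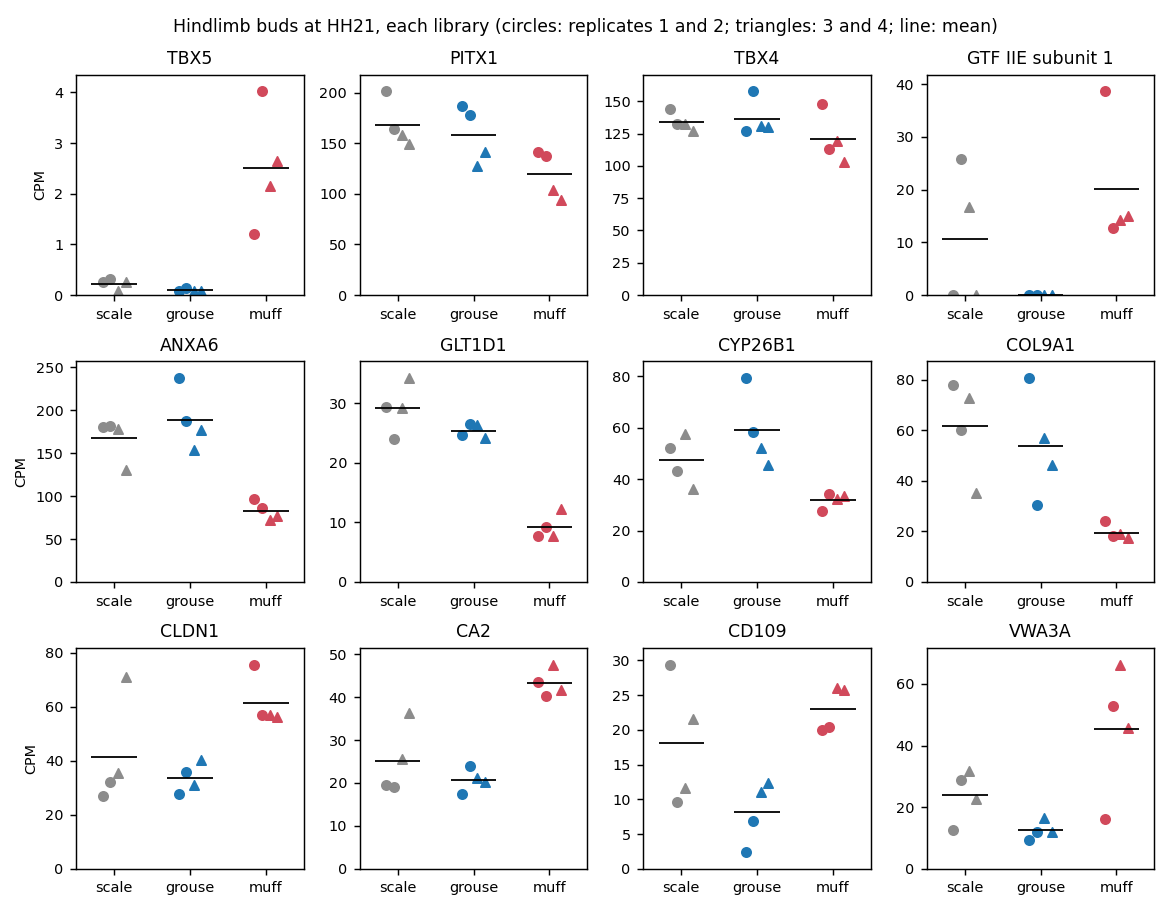
CPM (y axis, each panel from 0) of 12 features in the scale, grouse and muff hindlimb libraries at HH21; points are libraries and lines are means of 4. TBX5 sits near 0 in grouse and scale and between 1.21 and 4.03 in muff, PITX1 is lower in muff by 0.41 on the log2 scale, and the general transcription factor IIE subunit 1 feature is at 0 in all 4 grouse libraries and splits the scale libraries.

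The largest difference belonged to a feature named general transcription factor IIE subunit 1 (XM_005501178.1), whose product helps RNA polymerase II start transcription. It held 514, 180, 197 and 203 counts in muff replicates 1 to 4 and 0 counts in all 4 grouse libraries, so muff was at least 357-fold higher with a floor of 3 counts over the grouse group. The scale libraries held 0, 327, 201 and 1 counts, so they fell into a pair with the transcript and a pair almost without it. The forelimb counts followed the hindlimb ones number by number: 542, 187, 209 and 162 in muff, 1, 1, 0 and 2 in grouse, and 0, 295, 188 and 1 in scale. The same feature held 1131 counts in muff against 1 in grouse at HH25, and 912 against 1 at HH29. Its adjusted p was 0.0121 (edgeR), and 0.051 with the least favourable library left out. These counts are of 1 feature, and whether other features carry transcripts of the same gene was not tested.

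A feature named histidine--tRNA ligase, cytoplasmic-like, for an enzyme that loads histidine onto its tRNA, was the reverse. It held 2, 1, 2 and 1 counts in muff and 21, 25, 15 and 31 in grouse (log2 fold change -3.86, SE 0.43, edgeR adjusted p = 0.0121). The scale libraries again split, at 0, 33, 0 and 27 counts, and the scale forelimbs at 1, 29, 1 and 18. A different feature named histidine--tRNA ligase, cytoplasmic held 982 counts in muff and 1003 in grouse. Reads of such related copies may have been divided between them by the counting, which was not tested.

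The call with the smallest adjusted p was ANXA6, annexin A6, a calcium-dependent phospholipid-binding protein. It read 97.1, 85.7, 72.4 and 76.4 CPM in muff and 238, 188, 154 and 177 CPM in grouse. The groups did not overlap, and scale read 180, 182, 178 and 131 CPM. The log2 fold change was -1.19 (SE 0.09, edgeR adjusted p = 0.00248), and the call held under all 17 alternatives run, with an adjusted p of at most 0.022. ANXA6 was also lower in muff in the forelimb (-0.95, adjusted p = 0.000196) and at HH25 (-0.99, adjusted p = 0.00027), and had -0.29 at HH29 (adjusted p = 0.127).

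Among genes of skeletal and connective tissue, COL9A1 and TNC were lower in muff. COL9A1, a chain of the cartilage collagen IX, read 24, 18, 18.8 and 17.3 CPM in muff and 80.8, 30.5, 56.9 and 46.2 CPM in grouse (-1.46, SE 0.26, edgeR adjusted p = 0.036). TNC, the matrix glycoprotein tenascin C, read 5.95, 4.52, 5.83 and 6.54 CPM in muff and 17.7, 12.3, 19.6 and 11.1 CPM in grouse (-1.41, SE 0.22, adjusted p = 0.0243). Neither overlapped between the groups, and in both the scale mean lay near that of grouse. Also lower were LAMC3, the laminin gamma-3 chain (-1.67), ADAMTSL3, a matrix protein related to the ADAMTS proteases (-1.23), and CHODL, the membrane lectin chondrolectin (-1.29). Their edgeR adjusted p was 0.0442, 0.0442 and 0.0477. Of the 8 fits that left out a library, COL9A1, TNC and CHODL were each called in 2, and LAMC3 and ADAMTSL3 in 0. Going the other way, COL6A1, a chain of collagen VI, had 14.8, 5.87, 6.55 and 4.92 CPM in muff and 3.3, 4.32, 1.44 and 1.9 CPM in grouse (1.58, SE 0.30, adjusted p = 0.0449), where muff replicate 1 stood apart. COL6A1 was called in 1 of the 8 fits that left out a library. All 6 genes were among the 44 features, described below, that were called in no other comparison. LAMC3 was not tested in the forelimb.

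The cartilage and skeleton list held 12 tested features, of which COL9A1 was called lower and none higher. Its median log2 fold change was -0.42, against 0.012 for all features, and 3 of 12 lay above 0. COL2A1, the main cartilage collagen, had -0.68 (adjusted p = 0.0861), COL9A3 had -1.89 (adjusted p = 0.0901) and MATN4, matrilin 4, had -1.88 (adjusted p = 0.122). The grouse libraries varied widely in the last pair. COL9A3 was 30.1 ± 26.9 CPM in grouse and 7.55 ± 1.03 in muff, and MATN4 44.9 ± 42.1 and 11.2 ± 3.26. SOX9, the transcription factor that starts cartilage formation, had 0.47 (adjusted p = 0.215). IBSP, a bone matrix protein, had 0.96 (adjusted p = 0.159). At an unadjusted p below 0.05 there were 5 lower (41.7%) and 2 higher (16.7%), against 10.1% and 8.92% of all features, and DESeq2 called 3 (25%, against 5.27%).

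In the retinoic acid pathway, CYP26B1, which breaks retinoic acid down in the distal limb bud, was lower in muff. It read 27.8, 34.1, 32.4 and 33.3 CPM in muff, 79.5, 58.4, 52.3 and 45.7 CPM in grouse, and 52.2, 43.1, 57.6 and 36.2 CPM in scale. Every muff library lay below every grouse and scale library. The log2 fold change was -0.87 (SE 0.15, edgeR adjusted p = 0.036), in the forelimb it was -0.79 (adjusted p = 0.0185), at HH25 -0.02 (adjusted p = 0.938) and at HH29 -0.8 (adjusted p = 0.0657). The CYP26B1 call held in 1 of the 8 fits that left out a library. It was lost in 10 of 17 alternatives, at an edgeR adjusted p of up to 0.171. ALDH1A2, which makes retinoic acid, had 0.63 (adjusted p = 0.0781). CYP26B1 was the 1 feature called of 14 tested in this list, whose median was 0.05. DESeq2 called 2 (14.3%, against 5.27% of all features).

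Several cell-surface and signalling genes changed. CDH12, a type II cadherin, read 2.64, 13.8, 5.97 and 7.42 CPM in muff and 0.785, 0.676, 1.29 and 0.911 CPM in grouse (3.02, SE 0.50, edgeR adjusted p = 0.0312). CD109, a membrane-anchored TGF-beta co-receptor, read 20, 20.4, 26 and 25.8 CPM against 2.43, 6.89, 11.1 and 12.4 CPM (1.59, SE 0.28, adjusted p = 0.0364). CLDN1, a tight junction protein of epithelia, read 75.6, 56.8, 56.8 and 56.1 CPM against 27.6, 35.7, 31.1 and 40.4 CPM (0.86, SE 0.15, adjusted p = 0.0351). All 3 were higher in every muff library than in any grouse library, and the scale libraries covered 27 to 71.1 CPM for CLDN1 and 9.61 to 29.4 CPM for CD109. P2RY2, a receptor for extracellular nucleotides, was higher as well (1.25), while IRS1, the adaptor below the insulin and IGF receptors, was lower: 19.7, 15.1, 16.7 and 12.2 CPM in muff and 28, 34.4, 29 and 30.3 CPM in grouse (-0.94, SE 0.15, adjusted p = 0.0243). GRIP2, a PDZ scaffold protein, was lower from small counts (-2.29).

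A group singled out after its values were seen was that of the beta and gamma protocadherins, adhesion molecules best known from neurons. Of 13 tested features with such names 4 were called, which are gamma-A2-like (-2.27), gamma-B5-like (-1.52) and a pair of beta-15-like features (-1.16 and -0.81), all lower in muff. Of all tested features, 0.993% were called in either direction and 0.559% were called lower in muff. Over the 13 the log2 fold change ran from -2.27 to 0.22 with a median of -0.81, and 11 lay below 0. At an unadjusted p below 0.05 there were 8 (61.5%, against 19.1% of all), 7 lower and 1 higher. DESeq2 called 6 (46.2%, against 5.27%). Since the group was picked for its calls, these counts are a description. The gamma-A2-like feature held 6, 8, 4 and 5 counts in muff and 23, 26, 36 and 26 in grouse. For the more abundant beta-15-like feature the counts were 104, 134, 128 and 123 in muff and 177, 271, 197 and 201 in grouse. The scale libraries of that feature held 45, 144, 43 and 135 counts, low in replicates 1 and 3 and near the muff counts in 2 and 4. Protocadherin genes of a cluster are related, and how the counting divided reads that fit several of them is not given.

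Other called genes encode enzymes and transport proteins. CA2, a carbonic anhydrase, read 43.5, 40.2, 47.6 and 41.6 CPM in muff and 17.4, 24, 21.1 and 20.3 CPM in grouse (1.06, SE 0.12, edgeR adjusted p = 0.0121). BCHE, butyrylcholinesterase, read 17.3, 14.5, 19.6 and 16.8 CPM against 8.09, 7.97, 8.03 and 7.59 CPM (1.10, SE 0.14, adjusted p = 0.0133). Among mitochondrial proteins, NFU1, which helps assemble iron-sulphur clusters (0.92), and SFXN2, a sideroflexin carrier (1.09), were higher. EXOG, a mitochondrial nuclease (-0.55), and NDUFA2, a subunit of complex I (-0.80), were lower, so the calls did not share 1 direction. Both GLT1D1 features, for a glycosyltransferase domain protein, were lower (-1.46 and -1.47). The first of them read 7.76, 9.26, 7.77 and 12.2 CPM in muff and 24.7, 26.5, 26.4 and 24.1 CPM in grouse. EFCC1, a coiled-coil protein with calcium-binding EF hands, read 13.6, 9.05, 11.9 and 9.11 CPM against 68.4, 39.4, 34.6 and 30 CPM (-1.94, SE 0.23, adjusted p = 0.0121).

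ECI2, an isomerase of fatty acid oxidation, shows how a call can belong to 1 feature. The transcript XM_005506701.1 held 34, 25, 37 and 22 counts in muff and 2, 6, 7 and 6 in grouse (2.45, SE 0.36, edgeR adjusted p = 0.0213). The feature shared by 2 ECI2 transcripts held 4314 counts in muff and 4991 in grouse and had -0.23 (adjusted p = 0.149). Summed over the gene name, ECI2 had -0.22. VWA3A, a von Willebrand factor A domain protein, was higher in muff at 16, 52.9, 66.3 and 45.8 CPM against 9.35, 11.9, 16.4 and 12.1 CPM (1.84, SE 0.32, adjusted p = 0.036). Muff replicate 1 of VWA3A lay just below the highest grouse library.

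Most of the 128 differences had the same sign in libraries not used to call them. In the forelimb at HH21, 121 of 124 tested features had the same sign, at HH25 hindlimb 120 of 126 and at HH29 hindlimb 113 of 124. Over all features tested in both, the same-sign shares were 73.3%, 64.3% and 60%. In the forelimb 74 were called in the same direction, 35 higher and 39 lower, where 1.71% of all tested features were called (0.722% higher and 0.991% lower). At HH25 there were 51, 23 higher and 28 lower, against 1.78% of all (0.803% and 0.977%). At HH29 there were 41, 16 higher and 25 lower, against 2.05% of all (1.2% and 0.844%). None was called in the opposite direction by edgeR or DESeq2, with 0, 0 and 2 of opposite sign at an unadjusted p below 0.05. Both limbs were dissected in pairs, and the counts of the transcription factor IIE feature matched by number between limbs, so the forelimb was not taken as an independent set of embryos.

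The 56 higher features had a median log2 fold change of 0.84 in the HH21 hindlimb, and the 55 of them that were tested had 0.61 in the forelimb, 0.46 at HH25 and 0.49 at HH29. The lower features tested there had -0.7, -0.43 and -0.46, from -0.87 to -0.89 for the same features in the HH21 hindlimb. Values were smaller elsewhere than in the libraries that chose the features. A total of 26 were called in the same direction in all 4 comparisons, and 27 at all 3 hindlimb stages, the additional one being TBX5. Of the 26, NFU1, GNPDA1, which acts on glucosamine phosphate, SFXN2, FAM26E, borealin-2, VWA3A, MASP1, a protease of the complement lectin pathway, and DUS3L, which modifies tRNA, were higher in muff. IRS1, PPIL3, a cyclophilin, CPNE1, a calcium-dependent membrane-binding copine, AKR7A2, an aldo-keto reductase, EXOG, NOL9, a kinase of ribosomal RNA processing, RNASEH2B, serpin B6 and both GLT1D1 features were lower. CD3D, named for a subunit of the T cell receptor complex, was lower as well (-0.66), at 20.9, 20.6, 17.2 and 13.2 CPM in muff and 31.7, 37.4, 21.7 and 24.1 CPM in grouse. A further 58 were called in the same direction in some of the other comparisons. The last 44, COL9A1, TNC, PITX1, P2RY2 and KLHL1 (a kelch protein) among them, were called in no other comparison. KLHL1 was not tested in the forelimb, and 1 of the 44, PHKA2, a regulatory subunit of phosphorylase kinase, was tested in none of the others. Apart from TBX5, none of these features was called in the interaction test, which does not show that their differences were equal in both limbs.

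**Figure D3:**
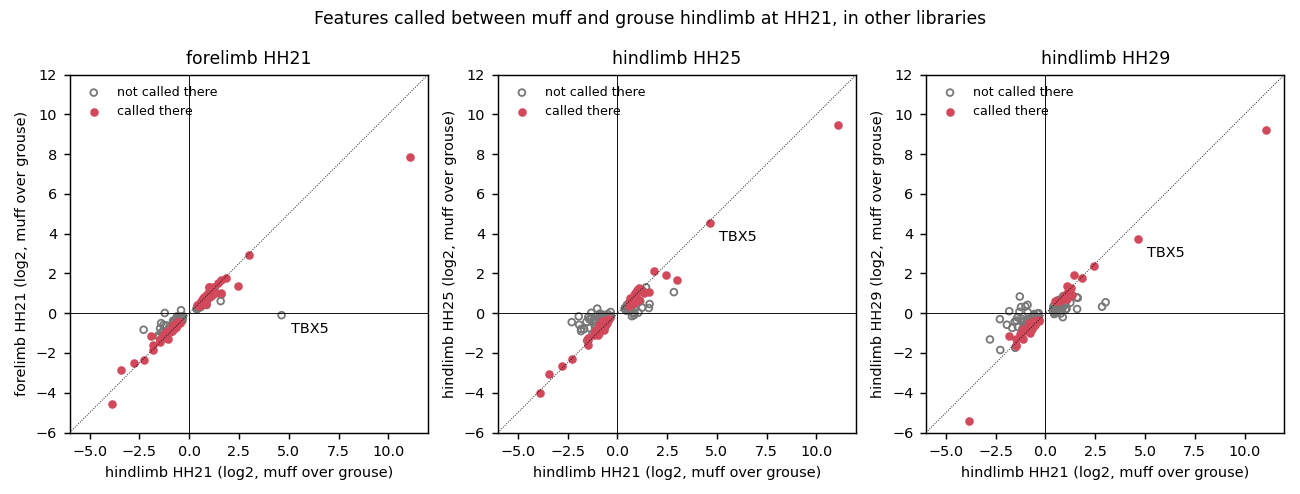
Log2 fold change of muff over grouse for the features called in the HH21 hindlimb (x axis) against the same quantity in the forelimb at HH21 and in the hindlimb at HH25 and HH29 (y axes); filled points were called there and the dotted line marks equal values. Most points lie in the same-sign quadrants, and TBX5 lies at -0.1 in the forelimb but at 4.52 and 3.75 in the later hindlimbs.

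The scale mean lay between the muff and grouse means for 49 of the 56 higher and 58 of the 72 lower features. It was nearer to grouse for 22 of the higher and 44 of the lower features, and nearer to muff for 34 and 28. Nearness was taken on log2(CPM + 0.1). The scale libraries did not enter the test, but the features were chosen for a gap between muff and grouse. A scale mean between the others is therefore a description only, and its share over all tested features was not taken.

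Of the 26 lists of pathway genes and cell type markers, 19 had no called feature. Those 19 lists held 199 tested features, of which 34 (17.1%) passed an unadjusted p of 0.05, against 19.1% of all tested features, and DESeq2 called PAX9, FGFR3, HSPH1, HSP90AA1 and TBX18. In the hedgehog and posterior list none of 10 was called by edgeR. SHH, the ligand, had -0.69 (adjusted p = 0.139), and GLI1 and PTCH1, whose levels follow its signal, had -0.15 and 0.04. In the apical ridge list none of 9 was called, where 0.993% of all tested features were. An unadjusted p below 0.05 was reached by 4 of them (44.4%, against 19.1% of all), 2 higher and 2 lower. FGF8 had 0.22, FGF9 0.57 and FGF17 0.96, and the homeobox genes DLX5 and DLX6 had -0.45 and -0.85. PAX9, a paired-box gene of the anterior bud, had -2.05 (adjusted p = 0.0865), the lowest value of these lists. Among HOX genes HOXD13 had -0.45, HOXC10 0.05, HOXD8 0.70 and HOXB5 0.86, with adjusted p from 0.137 to 0.796. HOXC10 is from the hindlimb identity list and HOXD8 and HOXB5 from the forelimb identity list, which held the PITX1 and TBX5 calls. Of 8 hindlimb identity features 5 lay above 0 (median 0.09), with 1 higher and 1 lower at an unadjusted p below 0.05 (12.5% each). Of 7 forelimb identity features 6 lay above 0 (median 0.36), with 3 higher (42.9%) and 0 lower at that p. Over all tested features 8.92% were higher and 10.1% lower at that p. The cell cycle list, 17 features, had a median of 0.06 and a range from -0.1 to 0.38.

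**Figure D4:**
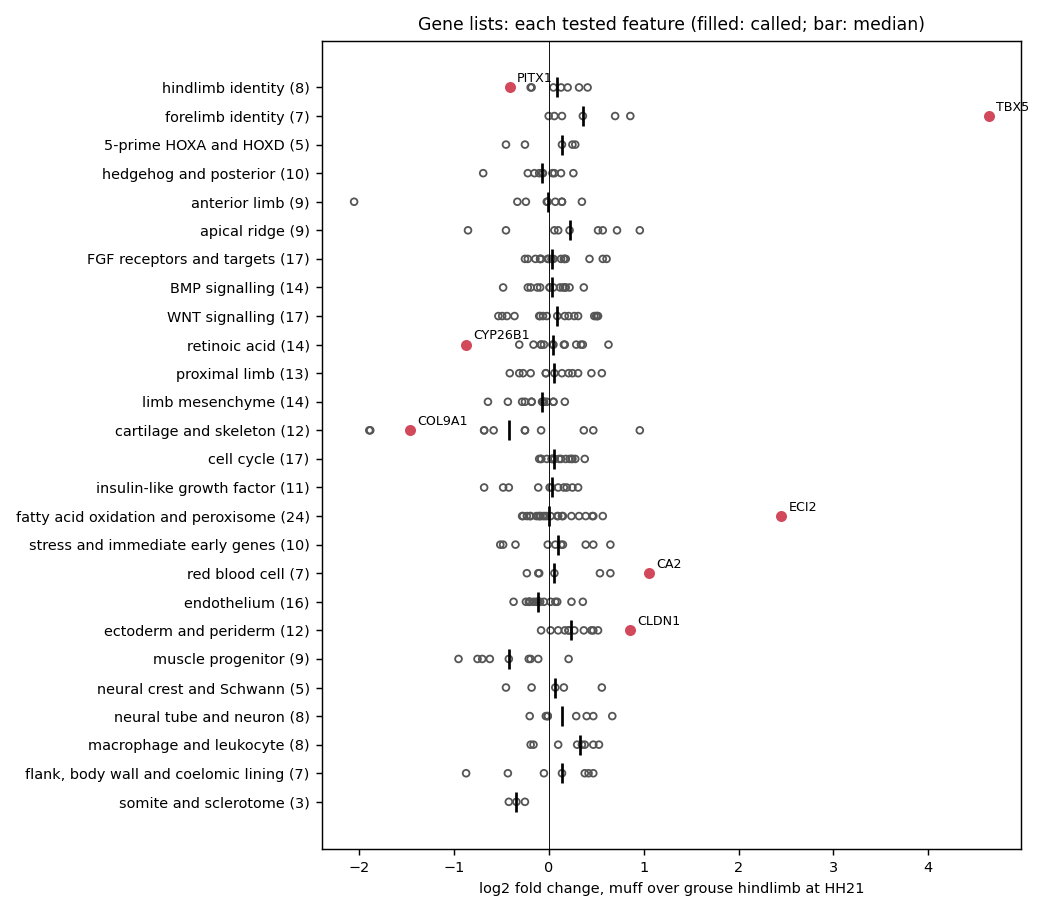
Log2 fold change of muff over grouse hindlimb at HH21 (x axis) for each tested feature of 26 gene lists (rows, with the number of features tested); filled points were called and bars are list medians. The called points are PITX1, TBX5, CYP26B1, COL9A1, ECI2, CA2 and CLDN1, and the cartilage and muscle progenitor medians are both -0.42.

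Markers of other cell types were summed in each library. Ectoderm markers ran from 321 to 494 CPM in muff and from 261 to 361 in grouse. Of 12 tested ectoderm features, which stand for 10 genes, 11 lay above 0, with a median of 0.24 and CLDN1 called. At an unadjusted p below 0.05, 3 (25%) were higher and 0 lower, against 8.92% and 10.1% of all features. DESeq2 called 1 (8.33%, against 5.27%). The part of ectoderm share in the CLDN1 difference was not tested. Muscle progenitor markers ran from 114 to 157 CPM in muff and from 144 to 200 in grouse. None of 9 tested was called by edgeR or DESeq2, and none passed an unadjusted p of 0.05. Of the 9, 1 lay above 0, and the median was -0.42. Red blood cell markers varied more within groups than between them, from 582 to 2760 CPM in muff and from 694 to 4260 in grouse. CA2, which red blood cells also express, was called. The haemoglobin features HBBA, HBAA and HBAD had -0.10, -0.11 and -0.23, HBE had 0.54, and the marker RHAG had 0.65. Of the 7 tested red blood cell features 4 lay above 0, CA2 among them, with a median of 0.06. The part of blood in the CA2 difference was not tested. Macrophage markers ran from 45.6 to 54 CPM in muff and from 31.5 to 48.5 in grouse. Neural tube and neuron markers ran from 61.4 to 82.7 CPM in muff and from 41.2 to 85.4 in grouse. Of that list PAX6 and NEUROD1 were at 0, while MAP2 had 37.4 CPM in muff and 38 in grouse. All summed levels overlapped between the groups.

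Z-linked features differed in level among the libraries, whose sex is not labelled. The mean log2(CPM + 1) of Z-linked features was 4.36, 4.99, 4.5 and 4.51 in muff replicates 1 to 4 and 4.18, 4.33, 4.49 and 4.44 in grouse. Of 453 tested Z-linked features 0 were called by edgeR, 91 passed an unadjusted p of 0.05 (20.1%, against 19.1% of all features) and DESeq2 called 10 (2.21%, against 5.27%). Of the 91, 88 were higher in muff, where over all features 1150 were higher and 1307 lower. A Z-linked mean was also used as a covariate, taken on edgeR's own log2 CPM instead of log2(CPM + 1). With it the count fell from 128 to 8, 7 of them among the 128: ANXA6, TBX5, EFCC1, BCHE, NFU1, COL6A1 and the transcription factor IIE feature.

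The authors' deposited table of this comparison lists 706 features at an adjusted p below 0.05, 315 above 0 and 391 below. It shares 120 calls with the 128, all of the same sign, which is 17% of its calls and 93.8% of those here. For TBX5 the authors' deposited table gives 1 on the log2 scale (SE 0.16, adjusted p = 1.93e-07), and for PITX1 -0.4 (SE 0.1, adjusted p = 0.00533). For general transcription factor IIE subunit 1 the authors' deposited table gives 0.12 (SE 0.07, adjusted p = 0.351) and for the histidine--tRNA ligase, cytoplasmic-like feature -0.21 (SE 0.09, adjusted p = 0.195), neither of them among its calls. The edgeR log2 values here were 4.64 for TBX5, -0.41 for PITX1, and 11.1 and -3.86 for the last pair. The authors' fold changes and those here are not taken as like measures, and why their sizes differ was not tested.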

How the data were processed

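Total RNA of limb buds was made into stranded poly(A) libraries and read as pairs on an Illumina instrument, per the labels' protocols. The submitters' processing notes name FastQC, STAR, featureCounts and DESeq2. The sources used here name no version, genome build or strand setting, so reads of overlapping or antisense genes may be mixed. The deposited counts are whole numbers of reads for 21379 features, of which 20879 carry a name. The authors' deposited table holds, per the file headers, a log2 fold change, its standard error, p-values before and after adjustment, and a normalized mean signal (with a test score, not used). Symbols came from that table, 10871 of 11714 of them also in the supplied RefSeq table (assembly bColLiv1.pat.W.v2), which gave the gene order. No coordinates or sequences are printed.

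Each comparison was fitted with edgeR 4.0.16 in R 4.3.3 on its own libraries: filterByExpr (minimum count 10, minimum total 15), TMM scaling, the quasi-likelihood test, a term for replicates 1 and 2 against 3 and 4, and Benjamini-Hochberg adjustment. At HH21 the numbering of the deposited libraries runs through replicates 1 and 2 of all groups before 3 and 4, and which of them shared a lane is not labelled. Library totals bound precision: a count of 0 allows up to 3 counts, and such floors cover counting error only. CPM of scale libraries came from a scaling over 12 libraries, with a ratio of 0.984 to 1.03 to the scaling over 8.

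Named genes were TBX5, TBX4 and PITX1; the 15 called features with a symbol that rose and the 15 that fell most; called members of lists; features called in all 4 comparisons; the interaction's calls; abundant list members; and neighbours of TBX5 and PITX1. Some genes that this rule takes are not reported here. NDUFA2, the second histidine--tRNA ligase feature, the protocadherins and the features named for the refits were chosen after their values were seen. The comparison, members and lists were chosen with earlier results of these data known.

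Replicate numbers were checked as pairs. Deviations of same-numbered muff and grouse libraries from their group means correlated over features at 0.25, 0.17, 0.48 and 0.29, all above 0.1. They correlated at -0.17, -0.17, -0.01 and -0.01 once the mean of replicates 1 and 2, or of 3 and 4, was subtracted within each phenotype. That subtraction makes replicates 1 and 2, and likewise 3 and 4, mirror images, so their values are equal by construction. Chi-square per degree of freedom between replicates was 6.98 to 66.7, so no library was a copy. DESeq2 1.42.0, its size factors, other filters, no term, the replicate block, sums over gene names, a Z-linked covariate, all 24 HH21 libraries in 1 fit and leaving out each library were alternatives.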

Additional observations from a re-analysis of the deposited data

Results flagged for a closer look

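Some libraries stood far from the other 3 of their group, by a gap that chance gives in about 1 in 20 groups; 21 of 336 groups of named features did so. Among called features these were TBX5 in grouse replicate 2 (0.135 CPM, 2 counts against 1 in each of the others), the general transcription factor IIE subunit 1 feature in muff replicate 1 (38.7 CPM), P2RY2 in muff replicate 3 (5.97 CPM), CLDN1 in muff replicate 1 (75.6 CPM), GDPD5 in grouse replicate 1 (11.3 CPM) and COL6A1 in muff replicate 1 (14.8 CPM).

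Grouse replicate 1 stood apart in 4 haemoglobin features, HBE (402 CPM), HBAD (1110 CPM), HBAA (1330 CPM) and HBBA (1370 CPM), and in DLX5 (56.2 CPM), MEIS2 (141 CPM) and HOXC10 (63.6 CPM). Grouse replicate 2 did in PRRX1 (293 CPM), TBX4 (158 CPM) and total counts (15098759), and grouse replicate 4 in ERG (102 CPM). Muff replicate 1 did in LMX1B (156 CPM) and EDNRB (22.9 CPM), muff replicate 3 in SPI1 (3.6 CPM) and DISP1 (82.9 CPM), and muff replicate 4 in SLC25A48 (12.6 CPM). Without grouse replicate 1 the count of called features was 187, higher than with any other library left out.

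The muff and grouse difference in TBX5 itself differed between hindlimb and forelimb, by 4.74 on the log2 scale in a test of that difference.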

How the results depend on the processing

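The count of 128 became 679 with the DESeq2 test, 706 with all 24 HH21 libraries in 1 fit, 15 with no term for replicates 1-2 against 3-4 and 8 with the Z covariate, and ran from 3 to 187 without 1 library. The forelimb count of 223 became 661 with DESeq2, 424 with no filter, 113 with no term, 106 with the Z covariate, and 51 to 172 without 1 library. The HH25 count of 235 became 460, 74 with no term, 377 with the Z covariate, and 52 to 301 without 1 library. The HH29 count of 279 became 775 with DESeq2 and 18 to 353 without 1 library, lowest without grouse replicate 3. The limb interaction called 1 feature throughout, also with a block by phenotype and number that was added after seeing the data.

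With the replicate block, which pairs libraries by number, the counts were 7 at HH21 in the hindlimb, 72 in the forelimb, 98 at HH25 and 233 at HH29, and 1 in the interaction. The block leaves fewer residual degrees of freedom. Of the 128 calls, 119 held with DESeq2 size factors, 125 with the DESeq2 test and 120 with no filter. Under the stricter filter 95 of the 107 still tested held. Signs held in each of these settings, which use the same libraries as the main fit. The sum over gene names called 120; under it ECI2 turned from 2.45 to -0.22, since its shared feature holds most counts. The cause of the changes in count was not tested. Features with few counts, such as TBX5 in grouse, have loosely bounded fold changes.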
